A study of Mus musculus with 4 samples.

Results

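The genes described here are those of glutathione metabolism, of the Nrf2 oxidant response and of detoxification. They were measured in basal epidermal cells that express an oncogenic form of the Hedgehog pathway component Smoothened, with or without Sox9. They were chosen by name from the probe annotation: every glutathione S-transferase of the alpha, mu, omega, pi, kappa, theta and zeta classes, every glutathione peroxidase, and listed genes of glutathione synthesis, thioredoxin, superoxide and hydrogen peroxide removal, and xenobiotic or amine oxidation. The rule gave 54 genes with 97 probe sets, of 18193 genes and 45101 probe sets in all: 20 transferases, 8 peroxidases and 26 of the listed genes. For 3 listed genes (Prdx1, Prdx5 and Prdx6) no probe set of their own was named, and 6 probe sets annotated to a member together with other genes were not used.

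Glutathione is a small thiol that cells use to reduce peroxides and to tag reactive compounds for export. Peroxidases spend it on hydrogen peroxide and lipid peroxides, transferases couple it to electrophiles, and glutathione reductase restores it. The transcription factor Nrf2 (gene Nfe2l2), held down by its partner Keap1 until oxidants or electrophiles modify Keap1, induces many of these genes through antioxidant response elements in DNA, and in the epidermis it is known for its part in protection from ultraviolet light and chemical carcinogens.

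Expression was read on Affymetrix 3' arrays hybridised with RNA of sorted mouse tail epidermal cells. The Sox9cKO group (K14CreER:SmoM2:Sox9cKO, 2 arrays) carried a conditional deletion of Sox9, a transcription factor that hair follicle stem cells need, and the SmoM2 group (K14CreER:SmoM2, 2 arrays) kept Sox9. Both genotypes expressed SmoM2, a constitutively active Smoothened, switched on by a tamoxifen-dependent Cre under the keratin 14 promoter, which is active in basal keratinocytes. Tamoxifen was given at 2.5 mg on each of 10 days, and basal cells, sorted for surface integrin alpha 6 without CD34, were collected 9 weeks after the first dose. No group without SmoM2 was measured, and age, strain and the number of animals per array are not given in the labels. Whether the 2 replicates of a genotype came from separate animals is not stated either, and the p-values speak only for the spread among these arrays.

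The arrays had nearly equal log2 medians (5.45 to 5.48), with Pearson's r of 0.991 within each genotype and 0.978 to 0.980 between genotypes across probe sets, which are not independent replicates. Sox9 was read at 3 probe sets: 1 had log2 signals of 6.75 and 5.70 in Sox9cKO and 10.21 and 10.02 in SmoM2 (log2 change -3.89, adjusted p = 0.00159 by limma over all probe sets), and the others changed by -0.75 and -0.41 with adjusted p of 0.143 and 0.298. Sox9cKO replicate 1 and SmoM2 replicate 2 carried Y-linked signal and the other 2 arrays did not, so the 2 arrays of a genotype were not repeats of 1 RNA sample. Basal keratinocyte markers averaged 11.50 and 11.63 in Sox9cKO and 11.77 and 12.03 in SmoM2. None of the 8 passed, against 6.19% of all genes, but their median log2 change was -0.42. Of the 8, 5 were lower in both Sox9cKO arrays than in both SmoM2 arrays, as were 21.8% of all genes. Among the 5 were Col17a1 (-0.87, adjusted p = 0.0780) and Itgb4 (-0.69, adjusted p = 0.0506). The part of this shift in the falls below was not tested. Cd34 was dim (3.75 to 4.15 over all arrays). Markers of other cells that moved with genotype are given beside the results.

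Loss of Sox9 went with lower signal of 9 of the 54 genes and higher signal of 2 at an adjusted p under 0.05 (limma, adjusted over all genes tested). The genes that fell were Gpx2, Aldh3a1, Gsta4, Glo1, Gsto1, Gstp3, Slc7a11, Ephx1 and Nqo1, and those that rose were Maob and Gstk1. Thus 20.4% were called, against 6.19% of all genes (3.53% lower and 2.66% higher). The members were brighter than most genes, with a median level of 8.11 against 6.53, and of the 36 above the median level of all genes 8 were called (22.2%), against 7.9% of all such genes. The median log2 change of the 54 was -0.10 and that of all genes 0.02, and the median size of the change, without its sign, was 0.30 for the members and 0.15 for all genes. The arrays of the genotypes did not overlap for 22 members that were lower and 11 that were higher, 61.1% in all, against 47.9% of all genes. These shares are descriptions of the list, with no test. The list was chosen with earlier results of these data known, so a share above that of all genes is not evidence about the pathway. With SmoM2 replicate 1 left out 4 members were lower and 2 higher, and with SmoM2 replicate 2 left out 4 were lower and 1 higher.

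**Figure D1:**
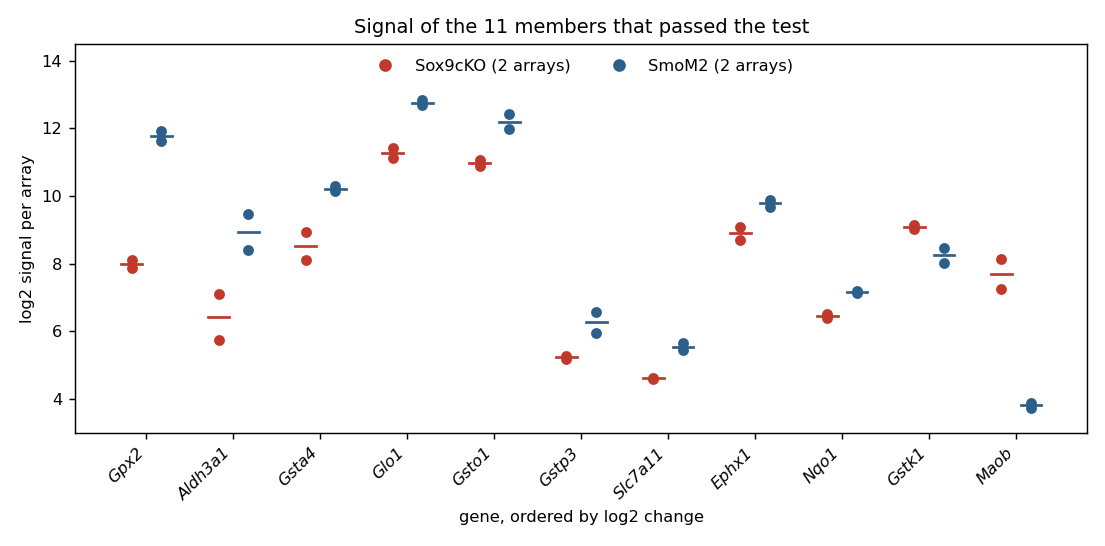
log2 signal on each array (points) and group mean (bars) for the 11 members that passed the test, Sox9cKO left of SmoM2 for each gene, 2 arrays per genotype. The arrays of the genotypes are apart for every gene shown, by the most for Gpx2 and Maob, and the replicates are widest apart for Aldh3a1.

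**Figure D2:**
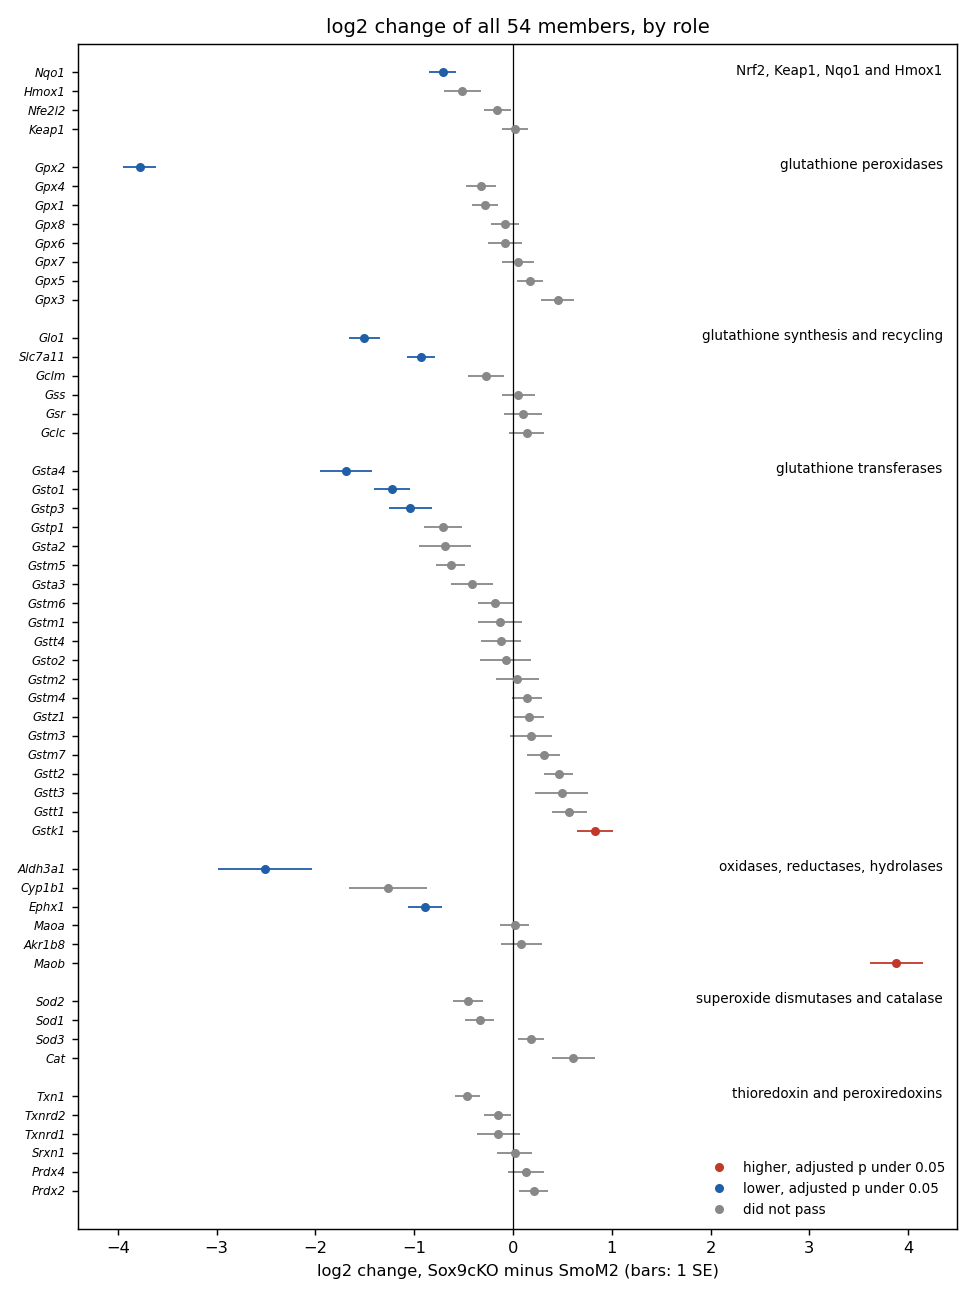
log2 change (Sox9cKO minus SmoM2, horizontal axis, bars of 1 SE) of all 54 members grouped by role. Changes reach from -3.78 for Gpx2 to 3.88 for Maob, while all 6 thioredoxin and peroxiredoxin genes lie between -0.46 and 0.21.

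Among the 8 glutathione peroxidases the epithelial form Gpx2, a selenoenzyme of gut and other surface epithelia that reduces hydrogen peroxide and organic peroxides, was the 1 that fell. Its log2 signals were 8.10 and 7.87 in the Sox9cKO arrays, against 11.92 and 11.62 in the SmoM2 arrays. Both Sox9cKO arrays thus lay far below both SmoM2 arrays, by over 3 log2 units. The change was -3.78 (SE 0.16), a 13.7-fold difference, and its adjusted p of 0.000135 came from the 6th smallest p of the 18193 genes. Leaving out any 1 array gave changes between -3.93 and -3.63 and adjusted p values between 0.000187 and 0.00376.

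The other peroxidases had changes between -0.32 and 0.45 and none passed. Gpx1, the cytosolic enzyme that most cells use against hydrogen peroxide, was the brightest of the family, at 12.19 and 12.27 in Sox9cKO and 12.53 and 12.50 in SmoM2. Its change of -0.28 (SE 0.13, adjusted p = 0.334) was small beside that of Gpx2, although the arrays did not overlap. Gpx4, which reduces lipid peroxides in membranes and so blocks ferroptosis, changed by -0.32 (SE 0.16, adjusted p = 0.345). The secreted Gpx3 had 5.77 and 6.15 in Sox9cKO, against 5.52 and 5.50 in SmoM2, a change of 0.45 (adjusted p = 0.202). Gpx5, Gpx6 and Gpx7 were dim, at 4.69 to 5.30 over all arrays, and the endoplasmic reticulum form Gpx8 changed by -0.08.

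Of the 20 glutathione transferases 3 fell, 1 rose and 16 did not pass, with a median change of -0.10. The cytosolic classes differed in which way their members lay. All 3 alpha genes, both pi genes and both omega genes had negative changes, the 7 mu genes had a median of 0.05, and 3 of 4 theta genes were positive. A difference between classes was not tested, and neighbouring genes of a class are similar in sequence, so that probe sets can share signal.

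Gsta4, which detoxifies 4-hydroxynonenal and other products of lipid peroxidation, had log2 signals of 8.09 and 8.95 in Sox9cKO, against 10.14 and 10.29 in SmoM2. The Sox9cKO replicates differed from each other by more than the SmoM2 replicates did, yet both lay at least 1 log2 unit lower. The change was -1.69 (SE 0.26), a 3.23-fold difference with adjusted p = 0.0115. It missed the threshold without SmoM2 replicate 1 (adjusted p = 0.0737) or 2 (adjusted p = 0.0958). Gsta2 and the dim Gsta3 changed by -0.69 and -0.41 (adjusted p = 0.225 and 0.389).

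Gsto1, an omega-class enzyme that acts as a thiol transferase and dehydroascorbate reductase, had 10.90 and 11.05 in Sox9cKO, against 11.98 and 12.43 in SmoM2. This brightly expressed gene was lower in both Sox9cKO arrays (log2 change -1.23, SE 0.18, 2.34-fold, adjusted p = 0.00899), and its other probe set gave 10.49 and 10.48 against 12.16 and 12.25, a change of -1.72 (SE 0.14, adjusted p = 0.00152 over all probe sets). The call at the brighter probe set narrowly missed without SmoM2 replicate 2 (adjusted p = 0.0514). Its neighbour Gsto2 was dim, at 3.53 to 4.34, and changed by -0.07.

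Gstp3, of the pi class, fell from low levels, with 5.26 and 5.19 in Sox9cKO against 6.58 and 5.94 in SmoM2 (log2 change -1.04, SE 0.21, adjusted p = 0.0340). It missed the threshold without Sox9cKO replicate 1 (adjusted p = 0.0813) or 2 (adjusted p = 0.102), without SmoM2 replicate 1 (adjusted p = 0.107) and when all probe sets were tested (adjusted p = 0.0506). Gstp1, the main transferase of keratinocytes and among the brightest members, had 11.72 and 11.28 in Sox9cKO, against 12.07 and 12.35 in SmoM2. Its change of -0.71 (SE 0.19) did not pass (adjusted p = 0.0870), but did when the prior was robust and followed intensity (adjusted p = 0.0473), and without Sox9cKO replicate 1 (adjusted p = 0.0457).

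The 7 mu-class genes, which form a cluster on chromosome 3, did not move as a block. Gstm5 had 9.76 and 10.02 in Sox9cKO, against 10.56 and 10.48 in SmoM2, and its change of -0.63 (SE 0.15) lay just outside the threshold (adjusted p = 0.0547). It was called when probe sets were averaged per gene, when dim genes were left out and under the robust prior with a trend. The other 6 mu genes changed by -0.18 to 0.31, and the 4 probe sets of Gstm1 by -0.13 to 0.35.

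Gstk1, the kappa-class transferase of mitochondria and peroxisomes, went the other way, at 9.01 and 9.14 in Sox9cKO against 8.47 and 8.02 in SmoM2. The rise of 0.83 (SE 0.18, 1.78-fold) passed by little (adjusted p = 0.0406). It missed the threshold without Sox9cKO replicate 1 or 2 (adjusted p = 0.0834 and 0.138), without SmoM2 replicate 2 (0.174), after quantile normalization (0.0510) and when every probe set was tested (0.0601). The theta genes Gstt1, Gstt2 and Gstt3, neighbours on chromosome 10, changed by 0.57, 0.46 and 0.49, and none passed (adjusted p = 0.136, 0.139 and 0.417). All were higher in both Sox9cKO arrays than in both SmoM2 arrays, as were 26.0% of all genes. Gstt1 and Gstt2 were dim, at 4.56 to 5.61. For Gstt3, Sox9cKO replicate 1 (6.59) lay close to the SmoM2 arrays (6.54 and 6.55), and replicate 2 was at 7.48. The fourth gene of that cluster, Gstt4, was near the bottom of the signal range and changed by -0.12.

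Of the 6 genes of glutathione supply, recycling and the glyoxalase step, 2 fell and 4 did not pass. Glo1 encodes glyoxalase I, which uses glutathione to remove methylglyoxal, a reactive by-product of glycolysis. It had log2 signals of 11.11 and 11.41 in Sox9cKO, against 12.70 and 12.84 in SmoM2. The change was -1.51 (SE 0.16), a 2.84-fold difference with adjusted p = 0.00221, and all 4 of its probe sets were lower, by 1.51 to 1.85 log2 units. Each of the 4 passed when every probe set was tested, where 4.21% of all probe sets did. Leaving out any array kept the call (changes of -1.66 to -1.36, adjusted p at most 0.0273). Glo1 lies on chromosome 17 between Btbd9 and Dnah8, a stretch that is duplicated in some laboratory mouse strains. Btbd9 had 7.32 and 7.10 in Sox9cKO and 7.25 and 7.22 in SmoM2, and the dim Dnah8 changed by 0.07 (adjusted p = 0.953 and 0.888 for Btbd9 and Dnah8). Whether the copy number of Glo1 differed between the genotypes was not tested, and the labels give no strain.

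Slc7a11, the cystine carrier that feeds glutathione synthesis, was dim in all arrays, at 4.62 and 4.59 in Sox9cKO against 5.64 and 5.43 in SmoM2. It fell by 0.93 on the log2 scale (SE 0.14, adjusted p = 0.0104), and its other probe set, at 3.83 and 3.80 against 4.88 and 5.19, fell by 1.22 (adjusted p = 0.00853 over all probe sets). The call was lost without SmoM2 replicate 1 (adjusted p = 0.0738). The enzymes of synthesis and recycling gave no such difference. Gclc, the catalytic subunit of the rate-limiting ligase, had 9.96 and 9.49 in Sox9cKO and 9.57 and 9.60 in SmoM2, a change of 0.14 (SE 0.18, adjusted p = 0.786) that turned negative without Sox9cKO replicate 1. Its modifier subunit Gclm changed by -0.27 (SE 0.18, adjusted p = 0.535), the synthetase Gss by 0.06 and the reductase Gsr by 0.10, with overlapping arrays for each.

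Of Nrf2, Keap1, Nqo1 and Hmox1, Nqo1 fell and the other genes did not pass. Nfe2l2, which encodes Nrf2, had 10.67 and 10.53 in Sox9cKO, against 10.72 and 10.80 in SmoM2, a change of -0.16 (SE 0.14, adjusted p = 0.648). Its dimmer probe set read 6.13 and 5.65 against 6.87 and 6.64, a change of -0.86 (SE 0.20, adjusted p = 0.0673 over all probe sets), so its probe sets disagreed in size. Keap1 had 9.23 and 9.27 in Sox9cKO and 9.21 and 9.26 in SmoM2, with a change of 0.02 (SE 0.13).

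Nqo1, a quinone reductase and a standard readout of Nrf2, had 6.39 and 6.51 in Sox9cKO, against 7.20 and 7.12 in SmoM2. The arrays did not overlap and the change of -0.71 (SE 0.14, 1.64-fold) passed (adjusted p = 0.0262). The size held with any array left out (-0.77 to -0.65), but the call did not, with adjusted p of 0.111 and 0.0632 without Sox9cKO replicate 1 or 2 and 0.137 and 0.106 without SmoM2 replicate 1 or 2. Hmox1, the heme-degrading oxygenase, had 5.83 and 5.34 in Sox9cKO, against 6.13 and 6.07 in SmoM2 (change -0.52, SE 0.19, adjusted p = 0.198). Srxn1, which repairs overoxidised peroxiredoxins, changed by 0.02 (SE 0.18) and Txnrd1, the cytosolic thioredoxin reductase, by -0.15 (SE 0.22), and both changed sign with an array left out. For Slc7a11, Gclc, Gclm, Nqo1, Hmox1, Srxn1 and Txnrd1 the changes ran from -0.93 (Slc7a11) to 0.14 (Gclc). The positive ones, Gclc and Srxn1, both turned negative with an array left out. Gpx2 (-3.78) lay below that range, as did the transferases Gsta4 (-1.69), Gsto1 (-1.23) and Gstp3 (-1.04). Gstk1 (0.83) lay above it, and other transferases, such as Gstp1 (-0.71) and Gstm5 (-0.63), lay inside it.

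The thioredoxin and peroxiredoxin genes were bright and none of 6 passed. Txn1, the cytosolic thioredoxin, was the brightest member of all, at 12.56 and 12.60 in Sox9cKO against 13.05 and 13.03 in SmoM2. Its replicates were close together, and the change of -0.46 (SE 0.13, adjusted p = 0.102) passed under the robust prior with a trend (adjusted p = 0.0399) and under no other alternative run. The peroxiredoxins Prdx2 and Prdx4, which remove hydrogen peroxide in the cytosol and the endoplasmic reticulum, changed by 0.21 and 0.13. The dimmer probe set of Prdx2 had the opposite sign (-0.50, SE 0.42), and the probe sets of Prdx4 ranged from 0.01 to 0.52.

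None of the 4 genes of superoxide and hydrogen peroxide removal passed, although the arrays did not overlap for any of them, as for 47.9% of all genes. Cat, the peroxisomal catalase, had 10.52 and 11.13 in Sox9cKO, against 10.09 and 10.34 in SmoM2 (change 0.61, SE 0.22, adjusted p = 0.192). Its other probe set changed by 0.08, and the call appeared without Sox9cKO replicate 1 (adjusted p = 0.0457). The mitochondrial Sod2 had 10.64 and 10.44 in Sox9cKO, against 11.10 and 10.89 in SmoM2 (change -0.46, SE 0.15, adjusted p = 0.159), the cytosolic Sod1 changed by -0.34 and the extracellular Sod3, dim, by 0.18.

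The oxidases, reductases and hydrolases held the largest rise and a large fall. Maob encodes monoamine oxidase B of the outer mitochondrial membrane, which oxidises amines and gives off hydrogen peroxide. It had log2 signals of 7.24 and 8.13 in Sox9cKO, against 3.74 and 3.87 in SmoM2. The SmoM2 values were near those of Y-linked genes on arrays without Y-linked signal (3.23 to 3.62), so the gene was at the bottom of the range there and the fold is not exact. The change was 3.88 (SE 0.27), 14.75-fold, with adjusted p = 0.000520, and between 3.44 and 4.33 with any array left out. Its neighbour on the X chromosome, Maoa, which encodes the other form, had 9.04 and 9.03 in Sox9cKO and 9.15 and 8.88 in SmoM2, a change of 0.02 (SE 0.15).

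Aldh3a1, an aldehyde dehydrogenase abundant in cornea and stomach, had 5.73 and 7.11 in Sox9cKO, against 8.41 and 9.46 in SmoM2. It had the widest replicate gaps of all members, 1.39 in Sox9cKO and 1.06 in SmoM2, but the genotypes did not overlap. The log2 change of -2.51 (SE 0.48, 5.71-fold) had adjusted p = 0.0256 and missed without SmoM2 replicate 2 (adjusted p = 0.157) and under the robust prior with a trend (adjusted p = 0.188). Ephx1, the microsomal epoxide hydrolase, had 8.71 and 9.09 in Sox9cKO, against 9.68 and 9.89 in SmoM2 (change -0.89, SE 0.17, adjusted p = 0.0278). It missed without Sox9cKO replicate 1 (adjusted p = 0.103) and without SmoM2 replicate 1 or 2 (0.0903 and 0.166). Cyp1b1, a cytochrome P450 that oxidises polycyclic hydrocarbons, had 8.21 and 6.98 in Sox9cKO, against 8.51 and 9.20 in SmoM2. Its replicates were far apart and the change of -1.26 (SE 0.40) did not pass (adjusted p = 0.138), though it did with Y-linked signal as a block and without Sox9cKO replicate 1. Akr1b8, an aldo-keto reductase, changed by 0.09 (SE 0.20), with a sign that depended on the array left out.

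**Figure D3:**
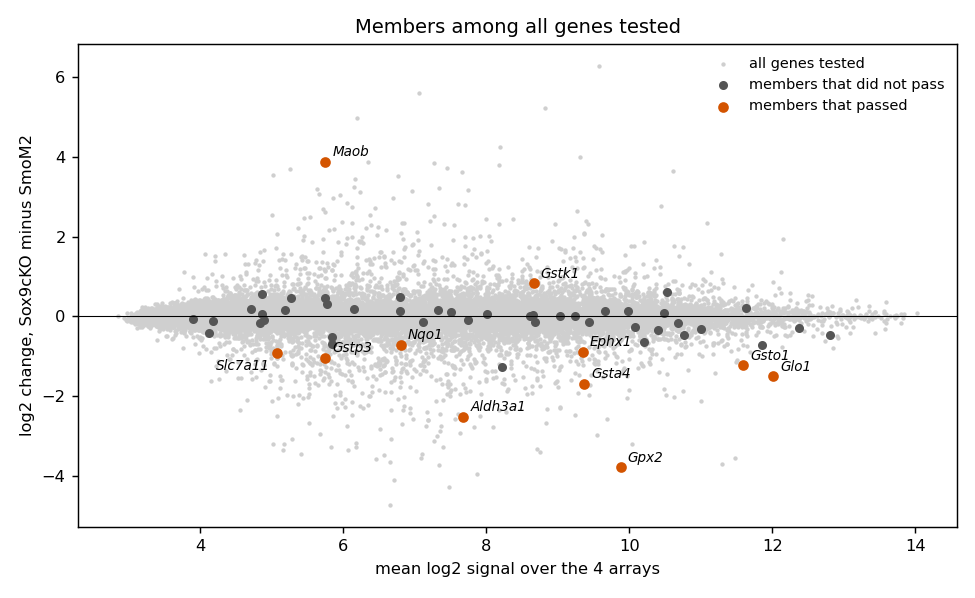
log2 change (Sox9cKO minus SmoM2, vertical axis) against mean log2 signal over the 4 arrays (horizontal axis) for all 18193 genes tested (light points), the 43 members that did not pass (dark) and the 11 that did (orange, named). Gpx2, at a mean signal of 9.88, and Maob, at 5.74, lie at the edges of the cloud.

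Promoter sequence was read from RefSeq (GRCm38.p6) for the 46 members with an entry, 8 of them called, in the 250 bases before the start site. The called Maob, Aldh3a1 and Gsta4 had no such entry and were not searched. The core of the antioxidant response element, written TGACNNNGC, was searched on both strands. It was found for 7 of the 38 members that were not called (18.4%) and 0 of the 8 called, while 10.2% of all 32851 promoter windows and 11.5% of all 27025 genes held it. A difference between called and other members was not tested, and 8 genes are few for such a share. The windows around the 7 matches are shown first, with the match in capitals and 10 bases on either side, since all of them belong to members that did not pass. Where the core lies on the opposite strand, the capitals show its reverse complement.

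Nfe2l2, chr2:75704885-75704913, minus strand: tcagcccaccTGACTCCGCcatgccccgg
Gclm, chr3:122245413-122245441, plus strand: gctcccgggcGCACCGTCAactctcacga
Txnrd1, chr10:82859104-82859132, plus strand: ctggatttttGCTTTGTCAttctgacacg
Gstm5, chr3:107895802-107895830, plus strand: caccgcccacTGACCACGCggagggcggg
Gstm7, chr3:107931725-107931753, minus strand: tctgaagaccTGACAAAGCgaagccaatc
Gsta3, chr1:21240454-21240482, plus strand: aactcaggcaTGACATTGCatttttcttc
Sod1, chr16:90220696-90220724, plus strand: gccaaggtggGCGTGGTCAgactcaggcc

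Counted from the start site, the matches began at -240 in Nfe2l2, -134 in Gclm, -129 in Gstm7, -121 in Gsta3, -92 in Txnrd1, -56 in Sod1 and -42 in Gstm5. None of these 7 genes passed the test, and their log2 changes were between -0.63 and 0.31. The SOX site core AACAAT was in 9.42% of all windows, for 10.9% of all genes and for 5 of the 46 members (10.9%; Cyp1b1, Gpx1, Gpx8, Gsta2 and Gstm7), 0 of them called. The core of the aryl hydrocarbon receptor element, GCGTG, overlaps the antioxidant match in Sod1 and Gstm5, was in 28.2% of all windows, for 30.9% of all genes and for 19 members (41.3%), 1 of them called (Gstp3). The upstream windows of Gpx2 and Glo1, the genes that fell with the smallest adjusted p values, are shown whole, in lower case because the antioxidant core is not in them.

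Gpx2 promoter, chr12:76795555-76795804, minus strand: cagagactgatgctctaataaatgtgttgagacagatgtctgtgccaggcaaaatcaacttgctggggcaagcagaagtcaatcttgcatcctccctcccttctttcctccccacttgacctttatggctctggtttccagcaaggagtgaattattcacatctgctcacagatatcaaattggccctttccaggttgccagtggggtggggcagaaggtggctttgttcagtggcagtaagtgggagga
Glo1 promoter, chr17:30612660-30612909, minus strand: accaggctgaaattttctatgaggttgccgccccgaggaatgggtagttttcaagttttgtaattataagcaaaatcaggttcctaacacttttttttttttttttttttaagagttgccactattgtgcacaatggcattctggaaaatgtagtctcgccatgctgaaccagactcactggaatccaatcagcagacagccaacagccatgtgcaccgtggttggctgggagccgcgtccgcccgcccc

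These windows hold only the bases next to the start, and nothing follows from an absent match about elements farther away.

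Related genes outside the rule fell more often than they rose. Of 81 measured genes on 6 lists, 12 were lower, 1 was higher and 68 did not pass, with a median log2 change of -0.21. Of all genes 6.19% were called, 3.53% lower and 2.66% higher. Of the 81 genes 58 lay above the median level of all genes, where 7.9% of all genes were called. The lists were chosen with earlier results of these data known, so their counts are no independent support for the falls of the members. Partners and regulators of Nrf2 gave no call among 8 (median -0.07), the nearest being the related factor Nfe2l1 at -0.54 (adjusted p = 0.0795) and Maff, a small Maf partner, at -0.40 (adjusted p = 0.163). Among 20 genes listed as further Nrf2 targets, pirin (Pir) and the soluble epoxide hydrolase Ephx2 fell (-0.93 and -0.86, adjusted p = 0.0110 and 0.0415). The pentose phosphate enzyme Pgd, a source of NADPH, changed by -0.70 (adjusted p = 0.0707). Whether Nrf2 controls each listed gene in these cells was not tested.

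Of the 8 measured enzymes and partners that make oxidants, 2 fell. Duox1, an NADPH oxidase that makes hydrogen peroxide at epithelial surfaces, had 6.54 and 6.61 in Sox9cKO, against 8.44 and 8.43 in SmoM2 (change -1.86, SE 0.13, adjusted p = 0.000529). Its maturation factor Duoxa1 had 8.47 and 7.52 in Sox9cKO, against 10.60 and 10.35 in SmoM2 (change -2.48, SE 0.29, adjusted p = 0.00332). The other 6 measured genes of that list did not pass.

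In glutathione turnover 2 of 15 fell, the microsomal transferase Mgst2 (-1.69, SE 0.31, adjusted p = 0.0225) and glutaredoxin Glrx (-0.76, SE 0.13, adjusted p = 0.0186), while Ggct, which breaks down gamma-glutamyl peptides, rose by 0.94 (SE 0.15, adjusted p = 0.0132). Of 11 further thioredoxin and selenoprotein genes 2 fell, Txnrd3, a thioredoxin and glutathione reductase (-1.19, SE 0.14, adjusted p = 0.00398) and the methionine sulfoxide reductase Msrb3, at 7.29 and 6.03 in Sox9cKO against 9.24 and 9.07 in SmoM2 (-2.50, SE 0.36, adjusted p = 0.00811). Of 19 genes of xenobiotic and aldehyde metabolism 4 fell. These were Aldh1a3, which makes retinoic acid (-1.96, SE 0.23, adjusted p = 0.00367), Adh7 (-1.34, adjusted p = 0.0476), the aryl hydrocarbon receptor target Tiparp (-1.16, adjusted p = 0.0267) and the fatty acid hydroxylase Cyp4f39 (-0.81, adjusted p = 0.0138). The receptor itself, Ahr, changed by -0.55 (adjusted p = 0.0637). Without SmoM2 replicate 1 the related calls numbered 6 rather than 13.

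**Figure D4:**
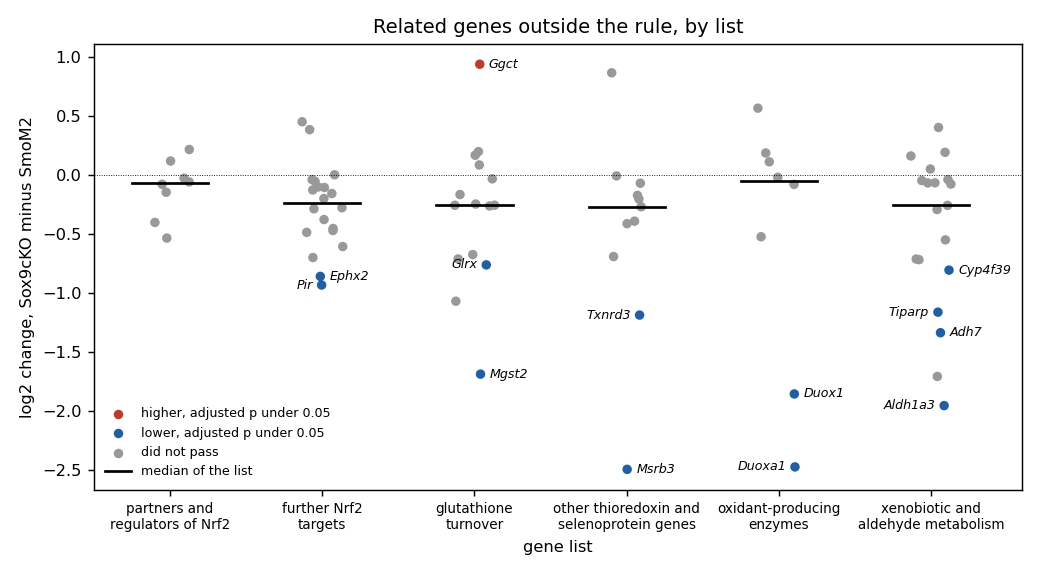
log2 change (Sox9cKO minus SmoM2, vertical axis) of each measured gene on the 6 related lists (points; horizontal bars are list medians), with genes that passed the test named. List medians lie between -0.27 and -0.05, and Ggct is the 1 named gene above 0.

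Markers of other cell types moved with genotype beside these genes. For the counts below, 3.53% of all genes were lower and 2.66% higher. Of 8 measured sebocyte markers 2 fell (Cidea and Plin2, log2 changes -2.29 and -1.18), and the list averaged 8.20 and 7.97 in Sox9cKO and 9.41 and 8.62 in SmoM2. Scd1 and Fabp5 went the other way, by 0.28 and 0.06, and did not pass. Mgst1 (-1.07, adjusted p = 0.151) is on this list and also among the glutathione turnover genes. Of 8 markers of inner root sheath and hair cortex 4 rose (Krt25, Tchh, Gata3 and Krt71), with list means of 7.09 and 6.75 in Sox9cKO and 5.86 and 5.69 in SmoM2. The hair cortex keratins Krt31 and Krt35 were dim and changed by -0.07 and 0.08. Of 7 suprabasal markers 2 rose (Lor and Flg, by 1.56 and 1.82), at list means of 10.29 and 10.61 in Sox9cKO and 9.86 and 9.58 in SmoM2. Krt1 and Krt10 were bright on every array (12.11 to 13.66). Sbsn, alone on that list, went the other way, at 11.59 and 12.32 in Sox9cKO against 12.36 and 12.53 in SmoM2 (-0.49, adjusted p = 0.349). Single genes rose on 3 lists. On the myeloid list H2-Aa rose by 1.87, with list means of 5.49 and 5.49 in Sox9cKO and 5.21 and 4.97 in SmoM2, and Ptprc lay between 3.57 and 4.07. Cd68, alone on that list, went the other way, at 5.40 and 5.37 in Sox9cKO against 5.84 and 6.01 in SmoM2 (-0.54, adjusted p = 0.0757). On the T cell list Thy1 rose by 1.99, with list means of 5.43 and 5.56 in Sox9cKO and 5.04 and 4.90 in SmoM2, and Cd3g and Cd3e did not pass. On the fibroblast list Dcn had 12.09 and 12.78 in Sox9cKO, against 8.85 and 8.70 in SmoM2, with list means of 6.75 and 6.95 in Sox9cKO and 6.17 and 6.11 in SmoM2. The other 6 fibroblast markers did not pass. Postn was bright on every array (12.01 to 12.69), Col1a2 had 5.96 and 6.59 in Sox9cKO and 5.96 and 5.16 in SmoM2 (0.72, adjusted p = 0.273), and Col1a1, Col3a1 and Lum lay between 3.71 and 4.51. Pdgfra changed by 0.35 (adjusted p = 0.385). No marker of melanocytes, endothelium, erythroid cells or Merkel cells passed. In sorted bulk RNA, fewer cells of a type and less RNA per cell cannot be told apart, and the part of these cell types in the results above was not tested.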

How the data were processed

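The members and gene lists were chosen with earlier results of these data known. Expression was measured in 4 samples on Affymetrix 3' arrays (100 ng of RNA each, per the labels' protocols). The authors deposited 1 log2 signal per probe set and array; the log scale was read from the values. The sources used here do not give how they were summarised and normalized, so any shift common to the majority of genes may already be gone. R 2.14.0 appears in the submitters' processing notes with no step attached to it. The number of arrays limits the precision.

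Probe sets with 1 gene symbol in the platform annotation (34958 of 45101; 932 had several and 9211 none or no entry, 64 of the probe sets being controls) were kept, and symbols were updated through entrez ID for 34754. Each gene was read at its brightest probe set, by mean signal across the 4 arrays. Sox9cKO and SmoM2 were compared with limma 3.58.1 (lmFit and eBayes, no covariate, two-sided, 7.17 degrees of freedom) in R 4.3.3, with Benjamini-Hochberg adjustment over 18193 genes and a threshold of 0.05. An exact permutation test of 2 against 2 arrays cannot go below p = 0.333. The fit was tested on simulated data.

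Named are all called members, the brightest and the most changed member of each role, 9 fixed Nrf2 pathway genes, and called or nearest genes of the related lists; other genes named were chosen after their values were seen, as were Btbd9 and Dnah8. The alternatives were the mean of probe sets, every probe set, no _x_at or _s_at probe sets, no dim genes (below a mean of 6.53), a trend and robust prior, quantile normalization, a replicate block, each array left out and, added later, Y-linked signal as a block. Deviations of same-numbered arrays correlated with r = 0.13 over probe sets, and the labels give no pairing. Planned protein sequences were not used here.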

Additional observations from a re-analysis of the deposited data

How the results depend on the processing

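None of the 11 called members changed sign in 129 values under the alternatives. Their arrays did not overlap, so leaving out an array could not turn a sign, and the blocks and the other prior keep the change itself. The kept signs are therefore no measure of robustness. Gpx2, Glo1 and Maob kept their calls in all settings that tested them, Maob being below the limit when dim genes were left out, and the other 8 lost theirs in at least 1 setting, as given above. Higher members numbered 1 with dim genes left out, with quantile normalization and with every probe set tested, against 2 in the reported fit, and 1 to 3 with an array left out. Lower members numbered 4 to 8 with an array left out, against 9. Over all genes, 199 to 404 were higher and 335 to 502 lower with an array left out. The labels share replicate numbers and do not say what they mark. Quality measures went with the number: labelling spikes were 9.19 (Sox9cKO) and 9.00 (SmoM2) in replicate 1 and 7.66 and 8.30 in replicate 2, and the 3' minus 5' signal of Actb was 0.75 and 0.74 in replicate 1 and 0.52 and 0.46 in replicate 2. With the replicate block, 879 genes were higher and 1040 lower, 3 members were higher and 13 lower (Cat, Cyp1b1, Gsta2, Gstm5 and Gstp1 were added), and 26 related genes were called. With Y-linked signal as a block, 2 members were higher and 10 lower. Related genes called numbered 6 to 12 with an array left out, and were fewest without SmoM2 replicate 1. With an array left out, Akr1b8 ranged from -0.15 to 0.32, Gclc from -0.10 to 0.37, Keap1 from -0.0071 to 0.0456, Srxn1 from -0.22 to 0.25 and Txnrd1 from -0.48 to 0.18; the cause was not tested. In fits that leave out an array the lone array of its genotype is assumed to vary like the other genotype. The deposited values carry no measure of signal over background, so which dim genes were detected is not known.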
